A study of Mus musculus with 4 samples.

Results

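The Eph receptors and ephrins that place cells along the crypt-villus axis were examined in epithelial cells of the mouse small intestine. The set was given by gene symbol as 7 genes, Ephb2, Ephb3, Ephb4, Epha2, Efna1, Efnb1 and Efnb2, and every probe set named for 1 of them alone was used. The platform annotation named 18193 genes in all. Of its 45037 probe sets 12 measured 6 of the members, with 1 probe set each for Ephb3, Ephb4 and Epha2, 2 for Efna1, 3 for Efnb1 and 4 for Efnb2. Ephb2 was not analysed here, since no probe set was named for it.

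The study compared mice that lack AP-1B, an epithelial clathrin adaptor that sorts proteins to the basolateral membrane, with heterozygous mice. All animals were C57BL/6J adults of 10 weeks, healthy and kept specific pathogen-free, labelled AP-1B+/- (2 arrays) or AP-1B-/- (2 arrays), and no wild-type array was analysed here. Per the labels' protocols the tissue was soaked for 20 min on ice in buffer with 30 mM EDTA, and epithelial cells were then freed by needle. The labels do not say which allele was made, whether each array came from 1 animal or whether animals were pooled. The p-values then cover the spread between these arrays alone. Each labelled group held 1 array with the male and 1 with the female pattern of sex-linked transcripts (Eif2s3y, on the Y chromosome, at 12.1 and 0.256 on the heterozygous and 24.1 and 0.051 on the knockout arrays, replicate 1 first), so the arrays of a group were not repeats of 1 sample. Arrays are called heterozygous 1, heterozygous 2, knockout 1 and knockout 2 by label and replicate number.

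Eph receptors are receptor tyrosine kinases whose ligands, the ephrins, sit on the surface of neighbouring cells. A-type ephrins are held by a lipid anchor and B-type ephrins span the membrane, and binding sends a signal into both the receptor cell and the ligand cell. In the intestinal epithelium, Wnt signalling keeps EphB receptors high in the crypt while B-type ephrins are higher on cells that move towards the villus, and repulsion between the populations keeps proliferating, Paneth and differentiated cells in their places.

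The targeted gene did not follow the labels. Ap1m2, which encodes the mu1B subunit of AP-1B, had signals of 19.9 and 4.33 on the 2 heterozygous arrays and of 2.49 and 22.3 on the 2 knockout arrays, replicate 1 first, in multiples of the array median. The deleted part of the gene is not given, and a probe set outside it would check nothing. As measured, the signals of the arrays labelled heterozygous 2 and knockout 2 went against their labels, and every direction by label given here carries that reserve. Each set of values is also given by Ap1m2 level, with knockout 1 and heterozygous 2 as the arrays of lower and heterozygous 1 and knockout 2 as those of higher Ap1m2, as a description with no test. Those arrays also differed as a whole. Every array had a median near 1, but the 75th percentile was 5.54 and 5.57 on heterozygous 2 and knockout 1 against 4.13 and 4.27 on heterozygous 1 and knockout 2. Values were therefore also compared after quantile normalization and after scaling to a common 75th percentile, which multiplied the arrays by 1.18, 0.880, 0.875 and 1.14 in label order. All 8 epithelial markers were among the kept probe sets, those whose 4-array mean reached 0.983, and Epcam, the epithelial adhesion molecule, had signals from 174 to 295.

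Promoter sequences are shown for Efna1 and Epha2, a ligand and receptor pair with wide ranges over the arrays. They are the 250 bases before the transcript start in RefSeq, build GRCm38.p6, written 5′ to 3′ on the gene's strand. The Efna1 window is chr3:89280952-89281201 on the minus strand and the Epha2 window is chr4:141300971-141301220 on the plus strand, and both lie outside the annotated gene. Capitals mark CTTTGA, the core letters recognised by TCF/LEF factors of the Wnt pathway, searched on both strands.
Efna1: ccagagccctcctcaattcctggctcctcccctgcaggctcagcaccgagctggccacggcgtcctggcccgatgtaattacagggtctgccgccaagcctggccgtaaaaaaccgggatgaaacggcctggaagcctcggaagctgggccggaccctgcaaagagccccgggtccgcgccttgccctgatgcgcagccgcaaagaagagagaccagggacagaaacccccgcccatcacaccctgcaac
Epha2: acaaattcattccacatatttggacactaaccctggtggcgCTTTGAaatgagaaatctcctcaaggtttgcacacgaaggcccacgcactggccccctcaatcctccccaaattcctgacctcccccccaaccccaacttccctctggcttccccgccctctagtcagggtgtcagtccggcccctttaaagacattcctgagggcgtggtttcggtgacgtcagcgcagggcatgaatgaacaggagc
Epha2 held 1 CTTTGA, which began 209 bases before the start, at position -209, and none was found in the windows of the other members. Of 32851 promoter windows of the same length, 13.8% held it. TTTATG, letters of the kind bound by the intestinal factors CDX1 and CDX2, was searched in the same way, was found in 0 of the 8 member windows and was present in 10.8% of all. Guanine and cytosine made up 64.8% of the Efna1, 55.6% of the Epha2, 60.0% of the Efnb1, 72.0% of the Efnb2 and 64.0% of the Ephb4 window, against a median of 52.4% over all windows. A match of letters is a description and not a binding site, and the windows of Ephb2 and Ephb3 and 1 further Efna1 entry, which overlap the annotated gene, are not shown.

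Among the receptors, Ephb3 had signals of 1.84 and 3.18 on heterozygous 1 and 2 and of 4.17 and 1.58 on knockout 1 and 2. EphB3, a Wnt target of crypt and Paneth cells, was thus highest on knockout 1 and lowest on knockout 2, and the labelled groups overlapped. Both arrays of lower Ap1m2 lay above both of higher Ap1m2, with 1.73-fold between the nearest values, 1.52-fold after quantile normalization and 1.29-fold at a common 75th percentile.

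Ephb4, a receptor of ephrin-B2 known from veins, had 3.37 and 3.70 on the heterozygous and 4.56 and 3.62 on the knockout arrays, replicate 1 first. It had a narrow range among the receptors, with the highest value 1.35 times the lowest. Heterozygous 2 exceeded knockout 2 by 1.02-fold, and after quantile normalization the order became 3.86, 3.33, 4.05 and 4.09, so that the arrays of lower Ap1m2 no longer stood above the others.

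Epha2, the main receptor of ephrin-A1 in many epithelia, had 6.25, 15.0, 12.4 and 8.96 in label order, that is heterozygous 1 and 2 and then knockout 1 and 2. The value on heterozygous 2 was 2.40 times that on heterozygous 1, a larger gap than any between arrays of different label. The nearest values of lower and higher Ap1m2 were 1.38-fold apart as deposited and 1.06-fold at a common 75th percentile, but after quantile normalization they met, at 0.994-fold.

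Among the ligands, Efna1 had the largest range of any member except 1 dim probe set of Efnb2. Its brighter probe set (1416895_at) had 11.3, 30.7, 17.3 and 9.23 in label order. The other (1448510_at) had 5.04, 15.8, 9.26 and 4.29, so both gave the same order of arrays. Heterozygous 2 was the highest array, at 1.78 and 1.71 times knockout 1 by the respective probe sets. Both arrays of lower Ap1m2 stood above the others under all 3 scalings, with 1.53- and 1.84-fold between the nearest deposited values, 1.05- and 1.31-fold after quantile normalization and 1.13- and 1.36-fold at a common 75th percentile. Between arrays of like Ap1m2, the knockout-labelled one was the lower, with knockout 1 at 0.562 and 0.585 of heterozygous 2 and knockout 2 at 0.818 and 0.852 of heterozygous 1.

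Efnb1, a B-type ligand of EphB receptors encoded on the X chromosome, was lowest on heterozygous 1 by all 3 probe sets. The signals of 1418285_at were 8.78, 14.2, 17.5 and 12.8, those of 1418286_a_at were 10.4, 14.9, 15.0 and 13.0, and those of 1451591_a_at were 6.65, 12.8, 12.2 and 10.5, in label order. The probe sets disagreed on the highest array, which was knockout 1 for the first pair and heterozygous 2 for the third. With nearest values of 1.11-, 1.14- and 1.16-fold, the arrays of lower Ap1m2 stood above the others as deposited but not under either other scaling, where knockout 2 was the highest array by 1418286_a_at and 1451591_a_at. Both replicate 2 arrays had the female pattern of Xist, an RNA of the inactive X chromosome, with 30.3 on heterozygous 2 and 60.1 on knockout 2 against 0.349 and 0.070 on heterozygous 1 and knockout 1. As deposited, the Efnb1 values of the replicate 2 arrays lay between those of the replicate 1 arrays by 1418285_at and 1418286_a_at, but not by 1451591_a_at. After quantile normalization knockout 2 was the highest array by 1418285_at too, at 15.5 against 14.9 on knockout 1. The part of sex in these values was not tested.

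Efnb2, the transmembrane ligand of EphB4 and other EphB receptors, was read by 4 probe sets of unlike brightness. The brightest, 1419639_at, had 31.3, 39.9, 39.5 and 29.8, a range of 1.34-fold, and 1419638_at had 13.6, 19.2, 19.8 and 11.4. Both showed heterozygous 2 and knockout 1 as near equals, with knockout 1 at 0.989 and 1.03 of heterozygous 2. The other probe sets were dim. On 1449549_at the signals were 0.956, 1.96, 1.72 and 1.57, and on 1449548_at they were 0.265, 2.94, 1.44 and 0.626, an 11.1-fold range near the array median. At a common 75th percentile the arrays ran 36.9, 35.1, 34.5 and 34.0 on 1419639_at, with the arrays of lower Ap1m2 between the others. In bulk samples like these, fewer cells of a type and less RNA per cell cannot be told apart.

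**Figure D1:**
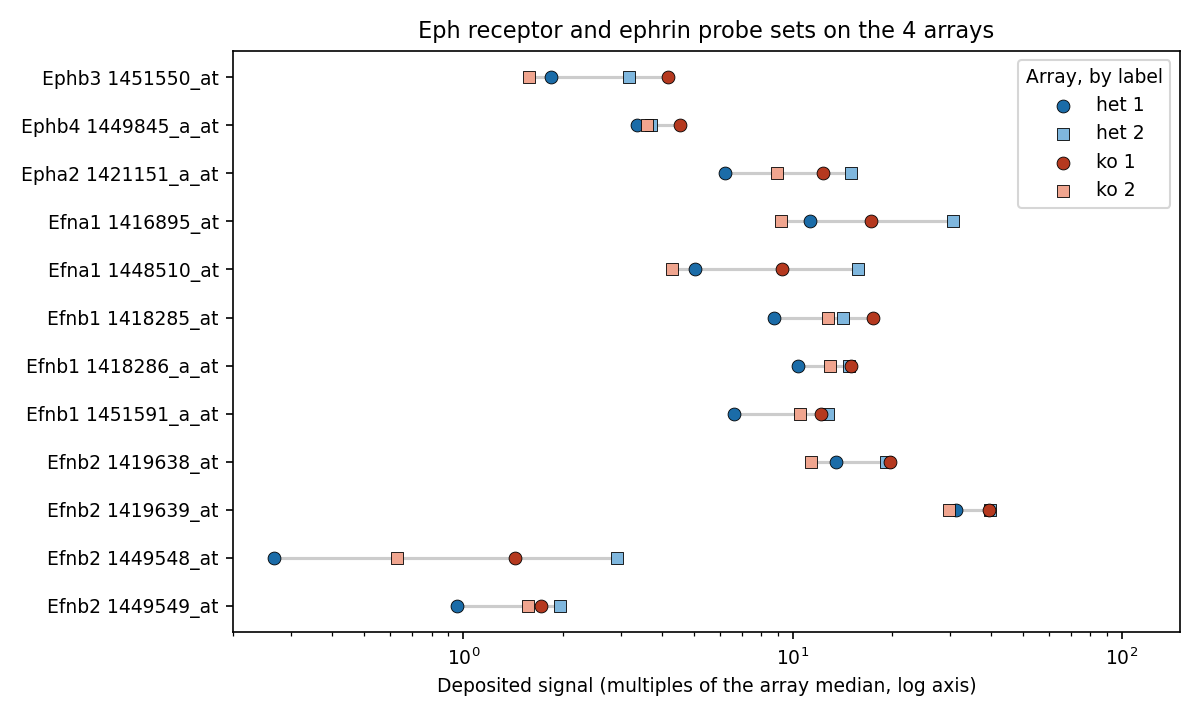
Deposited signal of each of the 12 probe sets (horizontal, multiples of the array median, log axis) on the 4 arrays. Circles are replicate 1 and squares replicate 2, blue is heterozygous and red is knockout by label, and grey lines span the 4 values. Heterozygous 2 or knockout 1 is the highest array in every row, as for Efna1 1416895_at at 30.7 on heterozygous 2, and heterozygous 1 or knockout 2 is the lowest.

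By label, none of the 12 probe sets differed beyond the spread between arrays. In a limma fit over the 22519 kept probe sets, on log2(value + 0.321), which understates differences of dim probe sets, 0 were called higher and 0 lower at an adjusted p under 0.05 (0% of those tested in both directions, with 170 at an unadjusted p under 0.05). The adjusted p was 0.999868 for each member and none had an unadjusted p under 0.05, the lowest being 0.402 for Efna1 1416895_at. The labelled groups did not overlap at 0 of the 12 probe sets, against 17.3% of all kept probe sets (6.56% with knockout above and 10.7% with knockout below). That 0 is no separate result. It is fixed by the order by Ap1m2 given below, since each labelled group holds an array of lower and an array of higher Ap1m2. Of the 12, 7 had a log2 difference above 0, knockout minus heterozygous, against 50.7% of all kept, and their median difference was 0.099 against 0.0055 over all.

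Efna1 had the lowest log2 differences, -0.55 (SE 0.63) and -0.48 (SE 0.62) by its 2 probe sets, from means of 21.0 ± 13.7 and 10.4 ± 7.63 in the heterozygous to 13.2 ± 5.68 and 6.78 ± 3.51 in the knockout group (SD, n = 2 each). Efnb1 had 0.41 (SE 0.55), 0.29 (SE 0.55) and 0.17 (SE 0.54) by 1418285_at, 1451591_a_at and 1418286_a_at, of which the first pair were the highest of the 12, with means of 11.5 ± 3.86 and 15.1 ± 3.34 for 1418285_at (SD, n = 2 each). The receptors had 0.09 (SE 0.51) for Ephb3, 0.19 (SE 0.43) for Ephb4 and 0.11 (SE 0.57) for Epha2. Their means were 2.51 ± 0.947 and 2.87 ± 1.83, 3.54 ± 0.234 and 4.09 ± 0.667, and 10.6 ± 6.20 and 10.7 ± 2.40 in the heterozygous and knockout groups, in that order (SD, n = 2 each). Efnb2 was at -0.04 (SE 0.55) for 1419639_at, -0.10 (SE 0.57) for 1419638_at, -0.10 (SE 0.70) for 1449548_at and 0.21 (SE 0.46) for 1449549_at. The standard errors, from 0.43 to 0.70, are large beside these differences, so a lack of calls does not show that the genes did not differ.

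Single arrays set the direction at 10 of the 12 probe sets, whose log2 difference turned sign when 1 array was left out. For Efna1 it became 0.16 and 0.31 without heterozygous 2, and 0.043 by 1448510_at without knockout 2. For Epha2 it became -0.50 without heterozygous 1 and -0.11 without knockout 1, and for Ephb3 -0.26 and -0.54 in that order. For Efnb1 it became -0.087 by 1418286_a_at and -0.17 by 1451591_a_at without heterozygous 1. The Efnb2 probe sets 1419638_at, 1419639_at and 1449548_at went to 0.14, 0.13 and 1.14 without heterozygous 2 and to 0.29, 0.16 and 0.35 without knockout 2, and 1449549_at went to -0.21 without heterozygous 1. Efnb1 1418285_at (0.069 to 0.75) and Ephb4 (0.032 to 0.34) kept their sign.

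**Figure D2:**
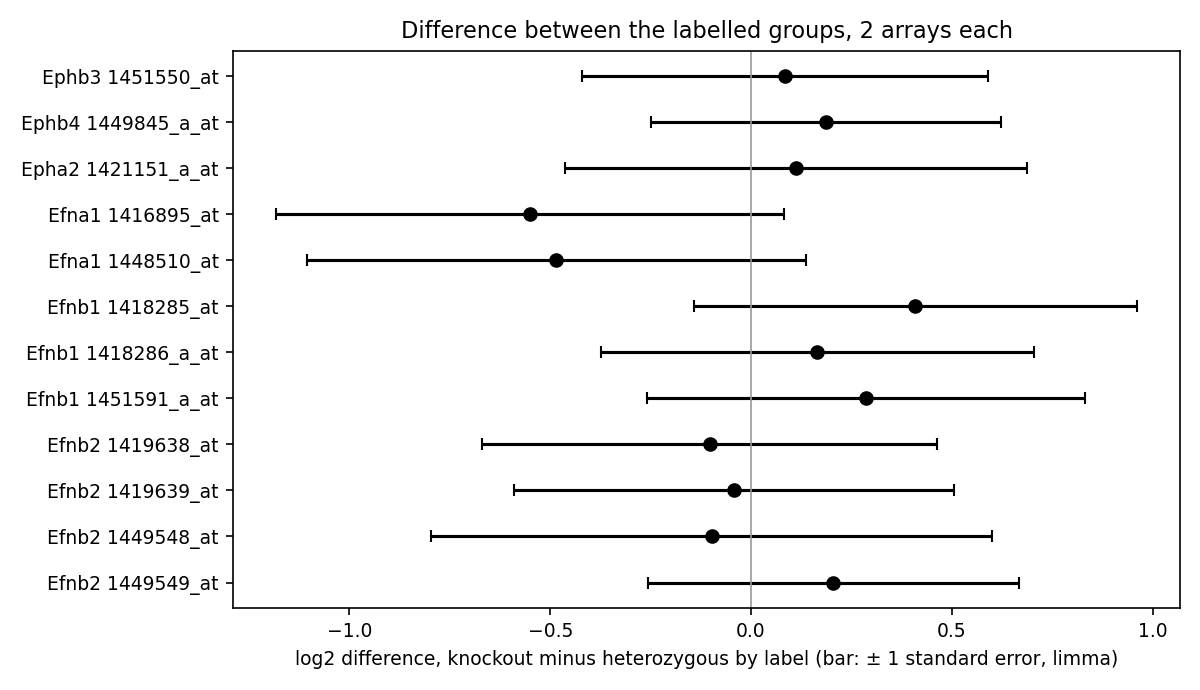
Log2 difference between the labelled groups, knockout minus heterozygous (horizontal), for the 12 probe sets, as points with bars of 1 standard error on each side from limma, 2 arrays a group. The points run from -0.55 for Efna1 1416895_at to 0.41 for Efnb1 1418285_at.

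By Ap1m2 level, the deposited values put knockout 1 and heterozygous 2 above both other arrays at all 12 member probe sets, against 52.7% of all kept probe sets. None had the opposite order, which 11.7% of all kept probe sets had. That count depended on the scaling. After quantile normalization it was 5 of 12 against 28.4% of all kept probe sets, with 2 of 12 in the opposite order against 24.9%, and at a common 75th percentile it was 6 of 12 against 27.7%, with 0 in the opposite order against 27.7%. Probe sets of a gene are not independent of one another. Ephb3, both Efna1 probe sets and the dim Efnb2 1449548_at had this order under all 3 scalings. Epha2 and Efnb2 1419638_at had it only as deposited and at a common 75th percentile, Efnb2 1449549_at only as deposited and after quantile normalization, and Ephb4, the 3 Efnb1 probe sets and Efnb2 1419639_at only as deposited. The opposite order after quantile normalization was that of Efnb1 1418286_a_at (12.9, 12.5, 12.8 and 15.8 in label order) and Efnb2 1419639_at (38.8, 33.0, 33.9 and 36.5). All kept probe sets, the base of these shares, were not matched to the members for brightness. The member probe sets had deposited medians of 6.45, 14.6, 12.3 and 9.10 in label order, against 4.13, 5.54, 5.57 and 4.27 over all kept.

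The members did not all peak on the same array. Heterozygous 2 was highest at 7 of 12 (35.3% of all kept probe sets) and knockout 1 at 5 (41.1%), while heterozygous 1 was lowest at 7 (38.7%) and knockout 2 at 5 (30.8%). Efna1 and Epha2 were highest on heterozygous 2, whereas Ephb3 and Ephb4 were highest on knockout 1. The highest value was at least 2-fold above the lowest at 6 of 12, against 45.9% of all kept probe sets, and the median ratio was 2.02 against 1.93 over all. The deposited order by Ap1m2 already places heterozygous 2 above heterozygous 1 at every member probe set. The median separation of these arrays was 1.82-fold over the members, against 1.47-fold over all kept probe sets. The knockout arrays, which also differed in Ap1m2, went the other way, at 1.37-fold against 1.54-fold. Between heterozygous 2 and knockout 1, the arrays of lower Ap1m2, the median separation was 1.22-fold against 1.31-fold.

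**Figure D3:**
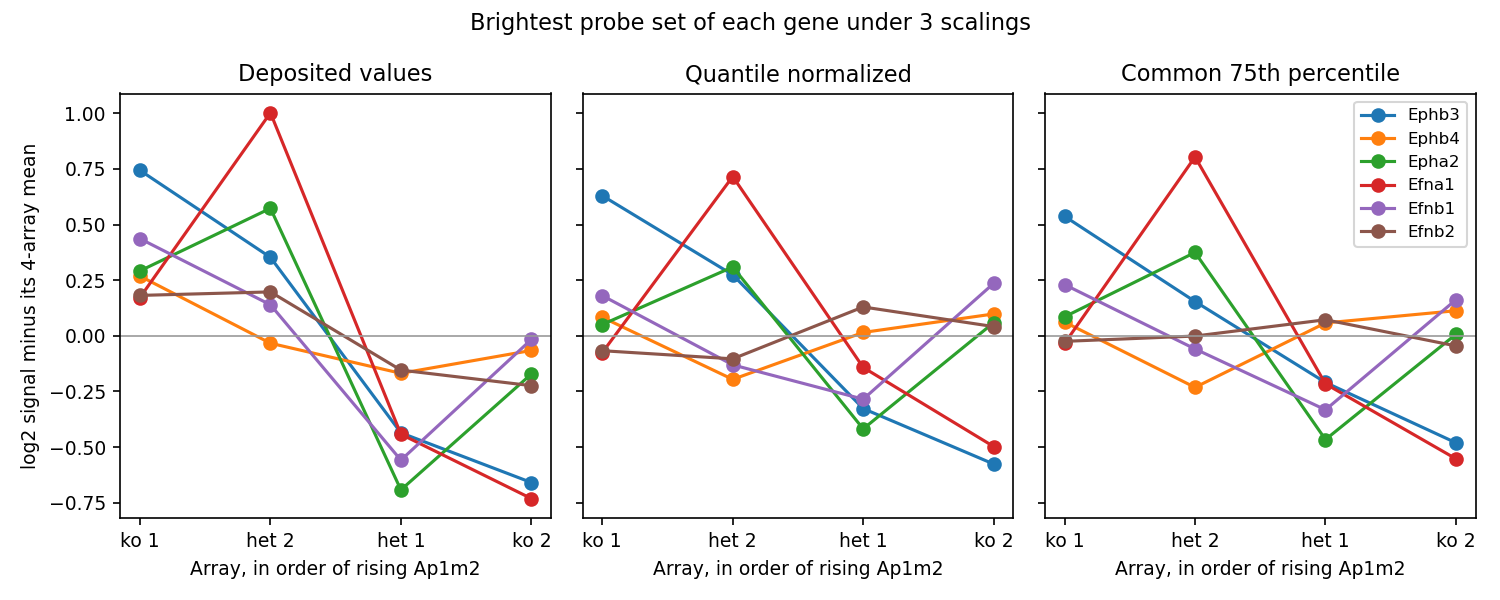
Log2 signal of the brightest probe set of each of the 6 genes, minus its mean over the 4 arrays (vertical), on the arrays in order of rising Ap1m2 (horizontal), as deposited and under both other scalings. Ephb3 and Efna1 lie higher on the left pair of arrays in every panel, while Ephb4, Efnb1 and Efnb2 do so only in the deposited values.

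The other genes of the family were mostly dim. Of 15 further Eph receptors and ephrins, each read by its brightest probe set, 5 were kept, and none passed the adjusted threshold by limma (0 called in both directions over all kept probe sets). Epha1, an epithelial receptor, had 8.48, 11.2, 8.60 and 7.81 in label order, a log2 difference of -0.24 (SE 0.51). Its other kept probe set, 1432400_at, had 2.05, 1.355, 0.817 and 1.705, a log2 difference of -0.39 (SE 0.47). The arrays of lower Ap1m2 stood below the others by 1432400_at under each scaling, but above them as deposited by the brighter probe set. The B-type receptor gene Ephb1 had 1.39, 0.840, 1.52 and 1.34. Among A-type ligands, Efna3 had 1.16, 1.73, 2.04 and 2.39, Efna4 had 1.64, 2.60, 2.40 and 2.08, and Efna5 had 1.49, 0.901, 1.13 and 1.25. The labelled groups did not overlap at 1 of these 5 kept genes, against 17.3% of all kept probe sets. That gene was Efna3, with a log2 difference of 0.54 (SE 0.43). Epha3, Epha4, Epha5, Epha6, Epha7, Epha8, Epha10, Ephb6, Efna2 and Efnb3 were below the filter, and the 27 family probe sets below it had signals from 0.010 to 1.40. Epha4 had 1.14 and 1.40 on heterozygous 1 and 2 against 0.286 and 0.455 on knockout 1 and 2 by its brightest probe set, but 0.542, 0.642, 0.957 and 0.710 by 1421929_at, so that the probe sets disagreed in direction.

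Genes known to act with Ephs and ephrins were read from a list of 36, of which 33 were kept, and 0 passed in each direction, 14 being higher and 19 lower by label with a median log2 difference of -0.07. At 21 of 33 (63.6%), the arrays of lower Ap1m2 stood above the others as deposited, against 52.7% of all kept probe sets. The share was 27.3% after quantile normalization, against 28.4% of all, and 45.5% at a common 75th percentile, against 27.7%. The 2 brightest were Cdh1, E-cadherin, with 157, 266, 219 and 145 in label order, and the GTPase gene Rac1, with 158, 217, 213 and 161. Adam10, a protease that cleaves ephrins and E-cadherin, was chosen after its values were seen and had 42.6, 79.4, 58.8 and 40.0. Heterozygous 2 was highest there, as at 18 of the 33 kept partners, against 35.3% of all kept probe sets.

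Genes of the crypt-villus axis gave a mixed picture beside the members. Of Wnt target and crypt stem cell genes 6 of 19 had the arrays of lower Ap1m2 above and 6 below (3 and 8 under both other scalings), against 52.7% above and 11.7% below over all kept probe sets, with Olfm4 at 122, 88.6, 106 and 117 and Prom1 at 37.3, 67.2, 64.7 and 44.6 in label order. Proliferation genes had them above at 17 of 18 as deposited. The count was 9 after quantile normalization, against 28.4% of all kept probe sets, and 12 at a common 75th percentile, against 27.7%. All 18 were highest on knockout 1 as deposited, against 41.1% of all kept probe sets, with Pcna at 74.0, 121, 197 and 70.4 and Mcm7 at 25.1, 33.4, 74.1 and 25.1. Efna1, Epha2 and part of the Efnb1 and Efnb2 probe sets were instead highest on heterozygous 2. Villus enterocyte genes had them above at 3 of 19 and below at 6. The number below was 10 after quantile normalization, against 24.9% of all kept probe sets, and 12 at a common 75th percentile, against 27.7%. The brightest villus genes, Fabp1 and Apoa1, were at 707, 770, 910 and 582 and at 782, 733, 758 and 633. Other members ran differently. Lactase, Lct, had 312, 82.3, 3.97 and 237 and the glucose transporter gene Slc2a2 had 224, 153, 53.1 and 198, both chosen after their values were seen. Genes listed as Paneth cell markers had them above at 1 of 6, which was Spink4 with 120.0, 244, 341 and 121, whereas Lyz1 had 512, 248, 381 and 150.1. By label, the median log2 differences were 0.18, 0.59, -0.28 and -0.51 for these lists in that order, and 0 genes of any passed the adjusted threshold by limma.

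Several marker lists of the cells in the preparation also differed between the arrays of lower and higher Ap1m2. Over all kept probe sets, the arrays of lower Ap1m2 stood above the others at 52.7% and below at 11.7% as deposited. These shares were 28.4% and 24.9% after quantile normalization, and 27.7% in each direction at a common 75th percentile. Epithelial markers had the arrays of lower Ap1m2 above at 7 of 8 (6 after quantile normalization, 5 at a common 75th percentile), with summed signals of 1887 and 2562 on heterozygous 1 and 2 and 2944 and 1723 on knockout 1 and 2. Krt8 had 455, 510, 601 and 382 and Krt20, also in the villus list, had 332, 348, 431 and 288. T cell markers had them below at 8 of 8 under all 3 scalings, with sums of 451, 91.5, 13.2 and 279, and myeloid markers below at 6 of 8, with sums of 103, 39.1, 37.1 and 49.3. For B and plasma cells the sums were 626, 245, 275 and 247, with 2 of 6 below (4 under both other scalings). Pancreatic acinar markers summed to 10.7, 32.6, 30.1 and 80.1, neural and glial markers to 4.24, 5.07, 8.29 and 5.09, and stromal and muscle markers to 28.2, 21.4, 30.7 and 28.3. Endothelial markers, of interest because vessels express Efnb2 and Ephb4, summed to 10.7, 7.62, 6.52 and 8.42. Of these 10 markers 5 were kept, with the brightest, Esam and Tek, at 1.10 to 1.76 and 0.433 to 2.42. The others, among them Pecam1 (0.119 to 0.238) and Cdh5 (0.134 to 1.09), were below the filter. The part of the epithelial, endothelial and immune markers in the order of the members was not tested.

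**Figure D4:**
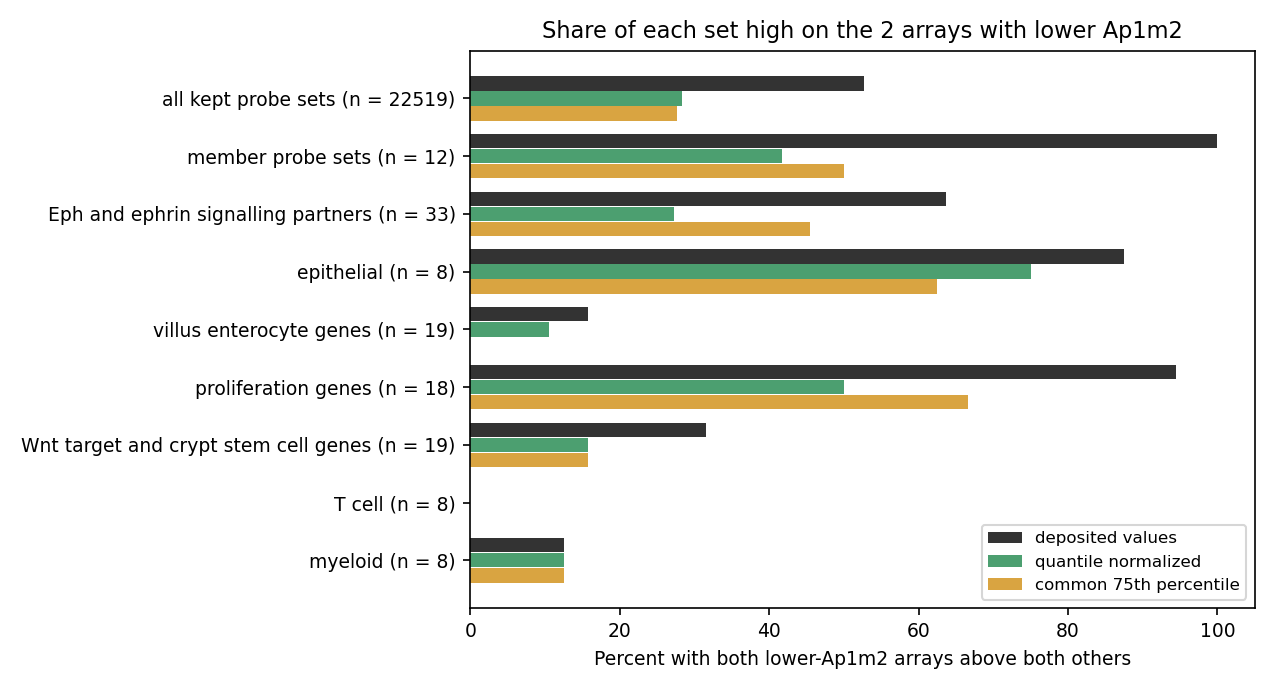
Percent of each set of kept probe sets (horizontal, from 0) whose signals on both arrays of lower Ap1m2 exceed those on both others, as deposited, after quantile normalization and at a common 75th percentile. The 12 member probe sets stand at 100%, 41.7% and 50%, all 22519 kept probe sets at 52.7%, 28.4% and 27.7%, and T cell markers at 0%. Members are counted by every probe set, so a gene can count more than once, while each listed gene is counted by its brightest probe set alone.

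The genes with the most similar pattern were found by the root mean square distance between log2 values centred on their mean over the 4 arrays, among 11320 other genes. For Efna1 they were Eif5a2 (0.077) and Rras (0.091), and just 2 genes lay within 0.1. Rras, a small GTPase gene, had 7.50, 23.6, 13.4 and 6.38 in label order. For Ephb3 they were Lrrc59 (0.0100) and Ppp1r7 (0.019) with 248 genes within 0.1, for Epha2 they were Spns1 (0.0094) and Rab29 (0.014) with 88, and for Ephb4 they were Zfp322a (0.0043) and Cisd2 (0.021) with 310. For Efnb1 they were Eif1b (0.021) and Ints11 (0.026) with 144, and for Efnb2 they were Gm36793 (0.011) and Golga2 (0.011) with 709. With 4 arrays, such likeness describes these arrays and was not tested. Every gene was read by its brightest probe set alone, so the neighbours named do not cover the other probe sets of Efna1, Efnb1 and Efnb2.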

How the data were processed

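Total RNA of 4 epithelial preparations was hybridised as biotin-labelled target to 1-colour Affymetrix arrays. The deposited values are linear intensities that the authors made with MAS5, per the submitters' processing notes, a step whose version, scaling target and detection calls the sources used here do not give. Arrays had been set to a median near 1, as the values show. Gene names came from the platform annotation (34945 probe sets for 1 gene, 932 for several, 9160 unnamed), and 34741 of the 1-gene probe sets matched the RefSeq table by Entrez identifier. All 7 member symbols had a RefSeq entry and a promoter window.

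Values were taken as log2(value + 0.321), the pseudocount being the 25th percentile of all values. Probe sets with a 4-array mean of at least 0.983 were kept (22519). The labelled groups were tested by lmFit and eBayes with a trend (limma 3.58.1, R 4.3.3) with Benjamini-Hochberg adjustment at 0.05. The fit was also run on simulated data with independent noise of 1 common spread, a check of the code that does not show how the fit performs on these arrays. Precision is limited by the number of arrays. At most 0.144% of probe sets had equal values on any 2 arrays.

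Members and lists were chosen with earlier results of these data known. Named were Ap1m2, all member probe sets, the other family genes, the 2 brightest of each other list where a result turned on them, and the 2 genes of nearest pattern per member. Adam10, Lct, Slc2a2, Epcam, Pecam1 and Cdh5 were named outside that rule. A list gene was read by its brightest 1-gene probe set. Alternatives were pseudocounts, filters, scalings, variance priors, a replicate block, a threshold of 0.10 and each array left out. A crossed block and the scalings of the order by Ap1m2 were added after seeing the data.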

Additional observations from a re-analysis of the deposited data

How the results depend on the processing

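Testing just the brightest 25% of probe sets gave 1 lower call, Pck1 (limma, adjusted p = 0.00716), and 0 higher, and it was no member. With 1 array left out, 1 group has a single array that is assumed to vary like the other group, and the calls ran from 0 to 56 higher and from 0 to 184 lower, with 17 and 7 without knockout 1 and 56 and 184 without knockout 2, where knockout 1 alone is set against the heterozygous arrays, and the members' median log2 difference ran from -0.24 without heterozygous 1 to 0.43 without heterozygous 2. Leaving out 1 array moved the log2 difference of Efna1 between -1.26 and 0.16 (1416895_at) and between -1.28 and 0.31 (1448510_at), of Epha2 between -0.50 and 0.72 and of Ephb3 between -0.54 and 0.71. It moved Efnb1 between -0.087 and 0.42 (1418286_a_at) and between -0.17 and 0.74 (1451591_a_at), and Efnb2 between -0.50 and 0.29 (1419638_at), -0.24 and 0.16 (1419639_at), -1.34 and 1.14 (1449548_at) and -0.21 and 0.62 (1449549_at). No member was called under any of these settings. Filters, variance priors and a balanced block cannot move a member's difference. With the other pseudocounts and scalings, 1 difference turned sign, that of Efnb2 1449548_at, to 0.067 with the smaller pseudocount. The number of member probe sets with both arrays of lower Ap1m2 above the others went from 12 to 5 with quantile normalization and to 6 at a common 75th percentile, and the number with them below went from 0 to 2 with quantile normalization. With the replicate number as a block there were 0 calls in both directions, and the members' median of 0.099 is fixed by the balance of the design. Deviations of same-numbered arrays correlated at -0.51 over the kept probe sets, and a block of crossed pairs also gave 0 calls in both directions. Detection calls were not used here, so dim probe sets such as 1449548_at have no stated limit of detection.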
